A study of Mus musculus with 26 samples.

Results

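Cells in which Mettl14 had been knocked down were set against scramble control cells on 4 expression arrays labelled 0 h, 2 arrays a group, of 26 arrays in 13 groups of 2. The 4 arrays were taken by their labels alone. The Mettl14 knockdown cells and the scramble cells were both J1 mouse embryonic stem cells, a widely used line, cultured in serum and LIF on irradiated mouse embryonic fibroblast feeders. The knockdown arrays carry the label of Mettl14 shRNA at 0 h and the scramble arrays that of scramble at 0 h, with the treatment field set to wild type. The labels' protocols describe both lentiviral shRNA with puromycin selection of stable lines and siRNA given as 2 successive transfections, for all samples alike, and do not tie a single hairpin or siRNA to an array. They name no clone or passage for these arrays and do not say whether feeder cells were removed before lysis. The replicates of a group are called biological, with no statement of separate cultures, so that p-values here measure the spread between these arrays. The same time course holds Mettl14 knockdown, Mettl3 knockdown and scramble cells at 0, 4 and 8 h, where the labels do not say what was added at 0 h. A second set of 8 arrays at 0 h, here named the repeat set, holds Mettl14 knockdown and Mettl3 knockdown cells, each with 2 scramble arrays of its own.

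METTL14 and METTL3 form the heterodimer that writes N6-methyladenosine (m6A) on mRNA. METTL3 carries the catalytic site and METTL14 holds the RNA substrate. Reader proteins of the YTH family bind m6A in the cytoplasm and the nucleus, and methylated transcripts are on the whole turned over faster. Embryonic stem cells depend on a small circuit of transcription factors and on LIF for their naive state, and the title of the study asks whether m6A lowers the stability of developmental regulators in these cells.

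The siRNA target sites given in the labels are printed as listed there. The Mettl14 knockdown arrays are labelled shRNA, and the labels tie no site to an array. Those given for Mettl14 (chr3:123368295-123385990, GRCm38.p6, the span of the gene in RefSeq) are 3 sites of 19 bases.
Mettl14 site 1: ccggatgtacagaggaaat
Mettl14 site 2: gggaactcatcagactaaa
Mettl14 site 3: gcacctcggtcatttatat
The sites given for Mettl3 (chr14:52294841-52308741, GRCm38.p6) are printed for the Mettl3 knockdown, the condition set directly against Mettl14 knockdown further on.
Mettl3 site 1: ggactgcgatgtgattgta
Mettl3 site 2: gacgaattatcaataagca
No transcript sequence was used here, so the sites were not placed within the genes and their exons are not given.

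Mettl14 signal was lower in the knockdown. Mettl14 read 7.28 and 7.51 in the Mettl14 knockdown arrays, against 9.08 and 9.10 in the scramble arrays (log2 RMA signal, the unit of every level in this text). Both knockdown arrays lay below both scramble arrays, and the log2 difference of -1.70 ± 0.13 (± standard error of the fit, adjusted p 9.59e-07) left 30.9% of the scramble signal. The probe set listed for Mettl3 is also listed for Tox4, so no value is given for Mettl3 alone. In a limma fit of probe sets, the shared one differed by -0.50 ± 0.11 between Mettl14 knockdown and scramble (adjusted p 0.00459). The probe set of Tox4 alone differed by -0.03 ± 0.07 (0.828). Replicate arrays correlated across probe sets with r of 0.9945 in the knockdown and 0.996 in scramble, and array medians at 0 h of the time course lay between 6.483 and 6.503, against 6.28 to 6.39 in the other arrays of the series. Markers of the stem cells summed to 23628 and 24085 on the linear scale in knockdown and to 31164 and 31208 in scramble, with 5 of 7 tested markers lower. Feeder fibroblast markers summed to 1543 and 1575 in knockdown and to 1338 and 1292 in scramble, with 3 of 11 tested markers higher, and the fibroblast genes Postn, Dcn, Lum and Fap were too dim to test. A wider list of 27 feeder genes had 9 of 21 tested members higher (42.9%, against 19.4% of all genes) and 0 lower. Its 26 measured genes, with the actin binder Tagln among them, summed to 7571 and 7809 in knockdown and to 4151 and 4178 in scramble. Trophoblast markers summed to 1211 and 1084 in knockdown and to 1347 and 1297 in scramble, with 4 of 7 tested markers higher and 1 lower. Primitive endoderm markers summed to at most 806 in knockdown and to 846 and 821 in scramble (1 of 5 higher), and neural markers to 1720 and 1715 in knockdown and to 2092 and 1956 in scramble (1 of 5 higher and 3 lower). In bulk RNA, fewer cells of a type and less RNA per cell cannot be told apart.

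Of 14787 genes tested, 2868 (19.4%) were higher and 2978 (20.1%) lower in Mettl14 knockdown than in scramble at an adjusted p under 0.05 (limma, all 18 time course arrays sharing 1 estimate of the spread). The median log2 difference over all genes was -0.004, with a 5th percentile of -0.53 and a 95th percentile of 0.66. Changes of at least 2-fold were split unevenly, with 335 genes (2.27%) higher and 123 (0.832%) lower. The filter on dim genes used the mean over all arrays, of which more were knockdown than scramble. Genes dim in scramble could pass it by rising, and genes that fell to dim signal, such as Gata6, could be left out. That can favour rises in this split. The split of all calls rests on the scaling of the arrays: with the median of long-lived metabolic and cytoskeletal genes made equal on every array, 2157 genes were higher and 3605 lower, so that 37.4% of the calls were rises in place of 49.1%. Of 307 genes named in the text, 32 lost their call under at least 1 other setting, 26 of them without 1 of the 4 arrays; they are named with their values at the end, and all but Dusp6 differed by under 0.6 here.

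Among the largest rises were genes of cell adhesion, of signalling between cells and of the epithelial cytoskeleton. Cysltr1 read 8.36 and 7.97 in the Mettl14 knockdown arrays, against 4.42 and 4.83 in the scramble arrays. This is a receptor for cysteinyl leukotrienes, and its scramble values lay below 6, the lowest mean signal among the genes tested, as did those of Fgf5. Thbs1 read 11.66 and 11.53 in the Mettl14 knockdown arrays, against 8.26 and 7.97 in the scramble arrays. Thbs1 encodes thrombospondin 1, a secreted matrix glycoprotein. Sema6a read 10.44 and 10.44 in the Mettl14 knockdown arrays, against 7.31 and 7.20 in the scramble arrays. Sema6a is a transmembrane semaphorin. Fgf5 read 8.83 and 8.70 in the Mettl14 knockdown arrays, against 5.86 and 5.62 in the scramble arrays. FGF5 is the growth factor that marks the primed epiblast. For Cysltr1 and Fgf5 the size of the difference rests on signal at the dim end of the arrays. In each of these 4 genes both knockdown arrays stood above both scramble arrays, by more than 2 log2 units at the closest. The differences were 3.54 ± 0.17 for Cysltr1 (adjusted p 1.3e-08), 3.48 ± 0.09 for Thbs1 (1.56e-10), 3.19 ± 0.09 for Sema6a (1.56e-10) and 3.02 ± 0.12 for Fgf5 (2.96e-09).

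H2-M2, a nonclassical class I histocompatibility gene, read 9.10 and 9.02 in the Mettl14 knockdown arrays, against 5.86 and 5.83 in the scramble arrays, a difference of 3.22 ± 0.09 (adjusted p 1.81e-10). Its scramble values also lay below 6, and probes of this gene may catch related H2 genes. Nefl read 10.40 and 10.31 in the Mettl14 knockdown arrays, against 7.55 and 7.32 in the scramble arrays. Nefl is the light chain of neurofilaments, and its difference was 2.92 ± 0.08 (adjusted p 1.56e-10). Wls read 9.32 and 9.32 in the Mettl14 knockdown arrays, against 6.69 and 6.47 in the scramble arrays. Wls is the carrier that Wnt proteins need for secretion, with a difference of 2.74 ± 0.10 (adjusted p 1.06e-09). The remaining 13 of the 20 largest rises lay between 2.24 for Krt18 and 2.82 for Fndc3c1. They include the calcium-dependent membrane binder Anxa3 (2.79), the scavenger receptor Colec12 (2.71), the prostaglandin synthase Ptgs2 (2.67), the sialyltransferase St6gal2 (2.59), the ephrin Efna5 (2.54) and the vasoconstrictor peptide Edn1 (2.39). The others were Ccn1 (2.43), Dsp (2.38), Krt8 (2.34), the ubiquitin ligase Rnf128 (2.34) and the GABA receptor subunit Gabra5 (2.33).

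**Figure D1:**
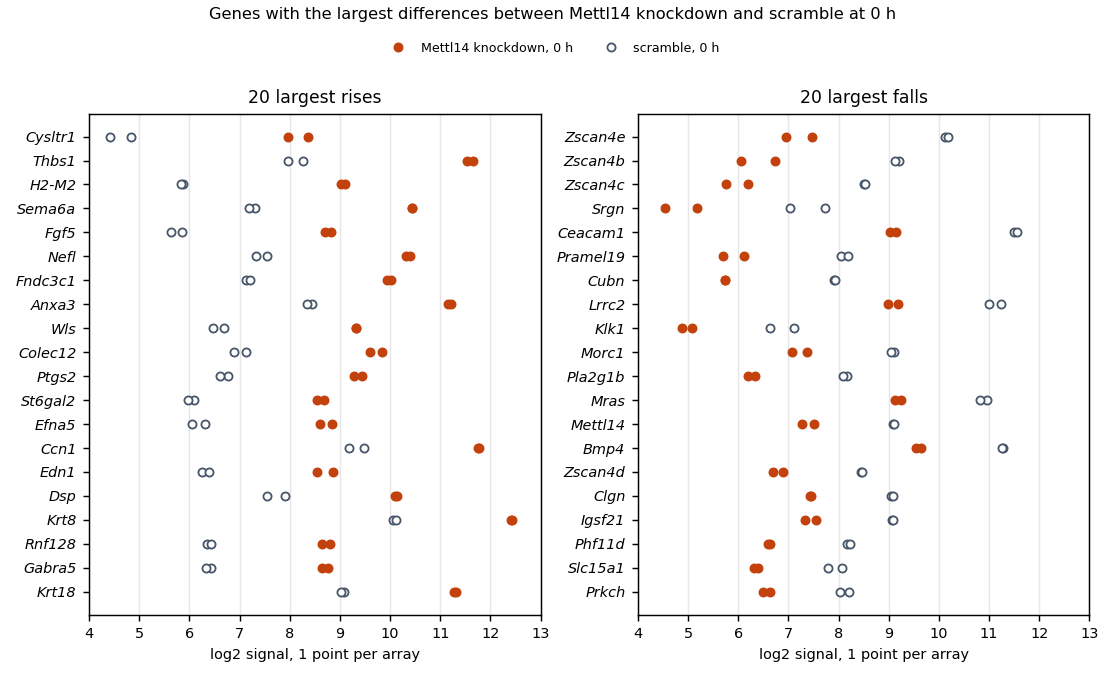
Log2 signal (x axis, 1 point per array) of the 20 genes with the largest rises and the 20 with the largest falls between Mettl14 knockdown (filled) and scramble (open) at 0 h. The groups do not overlap in any gene shown, which the choice of the genes required, and Thbs1 and Zscan4e show gaps of about 3 log2 units.

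The largest falls were led by Zscan4 genes, which are switched on in the rare two-cell-like state of stem cell cultures. Zscan4e read 7.48 and 6.96 in the Mettl14 knockdown arrays, against 10.13 and 10.18 in the scramble arrays. Zscan4b read 6.73 and 6.05 in the Mettl14 knockdown arrays, against 9.21 and 9.13 in the scramble arrays. Both knockdown arrays were far below both scramble arrays for both genes, with differences of -2.94 ± 0.18 for Zscan4e (adjusted p 1.09e-07) and -2.78 ± 0.25 for Zscan4b (3.16e-06). On the log2 scale Zscan4c fell by 2.55 and Zscan4d fell by 1.67. The members of this family are near-identical copies, so the probe sets may share signal and do not count as separate results.

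Ceacam1, a cell adhesion molecule of the carcinoembryonic antigen family, read 9.15 and 9.03 in the Mettl14 knockdown arrays, against 11.50 and 11.57 in the scramble arrays. Morc1 read 7.37 and 7.07 in the Mettl14 knockdown arrays, against 9.11 and 9.05 in the scramble arrays. Morc1 is a germline ATPase that silences retrotransposons. Bmp4 read 9.64 and 9.55 in the Mettl14 knockdown arrays, against 11.28 and 11.27 in the scramble arrays. BMP4 acts with LIF to hold back neural differentiation of stem cells. In these 3 genes the groups stood apart by more than 1.5 log2 units, and the differences were -2.44 ± 0.09 for Ceacam1 (adjusted p 1.06e-09), -1.86 ± 0.15 for Morc1 (1.21e-06) and -1.68 ± 0.13 for Bmp4 (1.05e-06). Beside Mettl14 itself, the other falls were Srgn (-2.52), a proteoglycan core protein, Pramel19 (-2.20), the cobalamin receptor Cubn (-2.18), Lrrc2 (-2.03), the kallikrein Klk1 (-1.90), the phospholipase Pla2g1b (-1.86) and the Ras-related GTPase Mras (-1.70). The list closed with the chaperone Clgn (-1.63), Igsf21 (-1.63), Phf11d (-1.58), the peptide transporter Slc15a1 (-1.58) and the protein kinase Prkch (-1.55). The knockdown signals of Srgn and Klk1 lay between 4.54 and 5.18, under the lowest mean signal tested, those of Cubn also lay under it, and those of Pramel19 and Zscan4c lay on both sides of it.

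Groups of genes were then described by how many of their tested members passed in each direction, set beside the 19.4% and 20.1% of all genes. The plot of all 47 lists gives the shares.

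**Figure D2:**
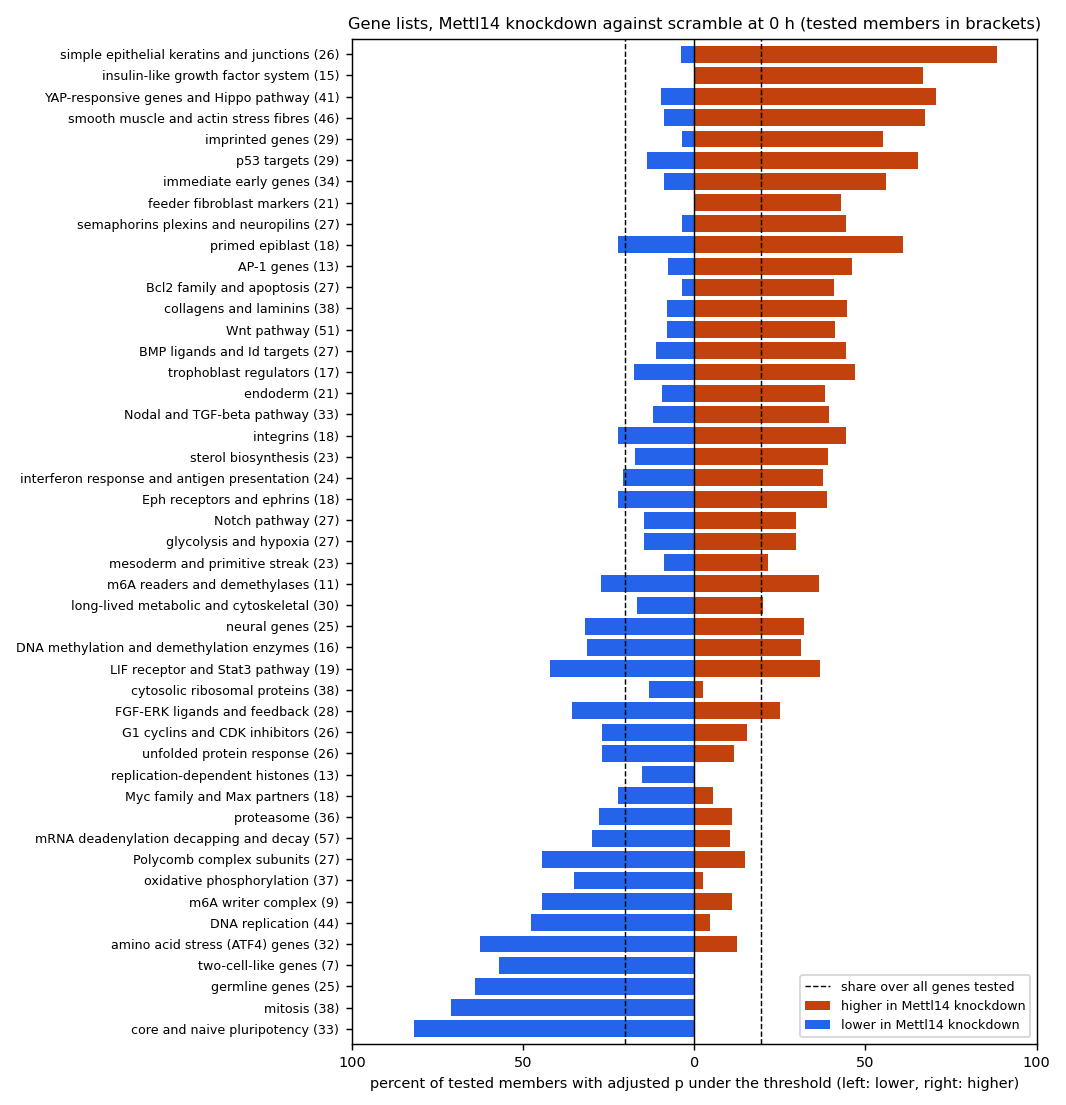
Percent of tested members (x axis) that were higher (right, orange) or lower (left, blue) in Mettl14 knockdown at 0 h, for each of 47 gene lists (y axis, number of tested members in brackets), with dashed lines at the shares over all genes. Keratins and junctions, insulin-like growth factor, YAP-responsive and actin genes have the longest bars to the right, and pluripotency, mitosis and germline genes the longest to the left.

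The structural genes of simple epithelia were higher. Of 29 keratin and junction genes, 26 passed the filter on dim genes, and 23 of 26 were higher and 1 lower, with a median of 0.58. Krt8 read 12.43 and 12.42 in the Mettl14 knockdown arrays, against 10.05 and 10.12 in the scramble arrays. Krt18 read 11.27 and 11.31 in the Mettl14 knockdown arrays, against 9.08 and 9.02 in the scramble arrays. These keratins pair into the first intermediate filaments of the embryo's outer layer, and both have many processed pseudogenes that probes could also catch. Dsp read 10.14 and 10.09 in the Mettl14 knockdown arrays, against 7.91 and 7.55 in the scramble arrays. Desmoplakin ties keratin filaments to desmosomes. Both knockdown arrays were above both scramble arrays in all 3 genes, with adjusted p of 2.32e-11 for Krt8, 7.87e-11 for Krt18 and 1.35e-09 for Dsp. Desmosomal cadherins were also higher, Dsc2 by 1.70 and Dsg2 by 0.97. Among tight junction genes the claudins Cldn6 (1.82), Cldn7 (1.45), Cldn4 (0.68) and Cldn3 (0.35) rose, with occludin (Ocln, 1.48), cingulin (Cgn, 1.01) and tricellulin (Marveld2, 0.98). The adherens junction genes moved less, with 0.38 for E-cadherin (Cdh1), 0.38 for Epcam and 0.09 for plakoglobin (Jup, adjusted p 0.184). The epithelial regulators Grhl2 (0.47), Ovol2 (0.32) and Esrp1 (0.38) rose by under 0.5. The member that fell was Krt42 (-0.75), a type I keratin.

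Genes that respond to the coactivator YAP, and several parts of the Hippo pathway that restrains it, were higher. Of 41 tested members, 29 were higher and 4 lower, with a median of 0.59 and 12 rises of at least 2-fold. Ccn1 read 11.77 and 11.74 in the Mettl14 knockdown arrays, against 9.48 and 9.18 in the scramble arrays. Ccn2 read 10.83 and 10.81 in the Mettl14 knockdown arrays, against 9.52 and 9.57 in the scramble arrays. Both encode matricellular proteins that serve as standard reporters of YAP. Their groups did not overlap, and the differences were 2.43 ± 0.09 for Ccn1 (adjusted p 1.82e-09) and 1.27 ± 0.08 for Ccn2 (1.74e-07). The receptor tyrosine kinase Axl (1.31), the tissue factor F3 (0.91), the surface nucleotidase Nt5e (1.10) and Crim1 (0.77) rose as well. Amot read 8.53 and 8.33 in the Mettl14 knockdown arrays, against 7.25 and 7.11 in the scramble arrays. Angiomotin holds YAP at junctions, and its difference was 1.25 ± 0.09 (adjusted p 6.4e-07), beside 0.99 for Amotl1 and 0.80 for Amotl2.

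The kinases of the pathway were not uniform: Lats2 rose by 1.07 and Lats1 by 0.38, whereas the upstream kinase Stk4 (-0.03, adjusted p 0.673) and its scaffold Sav1 (-0.02, 0.853) did not pass. Of the coactivators, Wwtr1 (TAZ) rose by 0.96 and Yap1 stood at 0.05 (adjusted p 0.504). Tead3 read 8.48 and 8.62 in the Mettl14 knockdown arrays, against 7.37 and 7.42 in the scramble arrays. Tead3 is 1 of 4 TEAD transcription factors, the DNA-binding partners of YAP, and its difference was 1.16 ± 0.08 (adjusted p 2.01e-07). Tead2 fell by 0.14 on the log2 scale, while Tead1 (-0.03) and Tead4 (0.01) did not pass. Vgll3 (1.41) and Vgll4 (0.67), cofactors that bind TEAD, were higher. The members that fell beside Tead2 were Myof (-0.23), the tumour suppressor Nf2 (-0.27) and Dlc1 (-0.44).

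Genes of contractile actin fibres were also higher. Of 46 tested members, 31 were higher and 4 lower, with a median of 0.41 and 13 rises of at least 2-fold. Tagln read 10.64 and 10.74 in the Mettl14 knockdown arrays, against 8.44 and 8.49 in the scramble arrays. Cnn1 read 9.43 and 9.36 in the Mettl14 knockdown arrays, against 7.24 and 7.36 in the scramble arrays. Transgelin and calponin 1 are actin binders of smooth muscle. Tpm1 read 11.23 and 11.34 in the Mettl14 knockdown arrays, against 9.77 and 9.73 in the scramble arrays. Tropomyosin 1 lies along actin filaments. The groups stood apart in all 3 genes, with differences of 2.22 ± 0.07 for Tagln (adjusted p 6.1e-10), 2.10 ± 0.06 for Cnn1 (1.56e-10) and 1.53 ± 0.05 for Tpm1 (6.46e-10). Caldesmon (Cald1, 1.83), filamin C (Flnc, 1.75), smooth muscle actin (Acta2, 1.03) and the regulatory light chain Myl9 (1.12) were higher. Focal adhesion proteins followed, with Lpp at 1.37, vinculin (Vcl) at 1.31, zyxin (Zyx) at 1.23, the paxillin relative Tgfb1i1 at 1.30 and talin 1 (Tln1) at 0.27. The abundant cytoplasmic actin Actg1 rose by 0.41, and Actb, often used as a loading control, stood at 0.15 (adjusted p 0.17). The transcription factor Srf (0.37) and its coactivators Mrtfa (0.29) and Mrtfb (0.29) were higher by under 0.4. Talin 2 (Tln2, -0.41), Lima1 (-0.39), Csrp2 (-0.48) and Enah (-0.19) fell. Tagln is also 1 of the 27 genes of the wider feeder list and counts in its sum. That sum was higher in both knockdown arrays (7571 and 7809) than in the scramble arrays (4151 and 4178). The shorter feeder marker list, without Tagln, summed to 1543 and 1575 in knockdown and to 1338 and 1292 in scramble. The wider list shares 9 genes with the matrix list and 0 with the YAP and Hippo list. The part of feeder RNA in the actin, YAP and matrix lists was not tested.

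**Figure D3:**
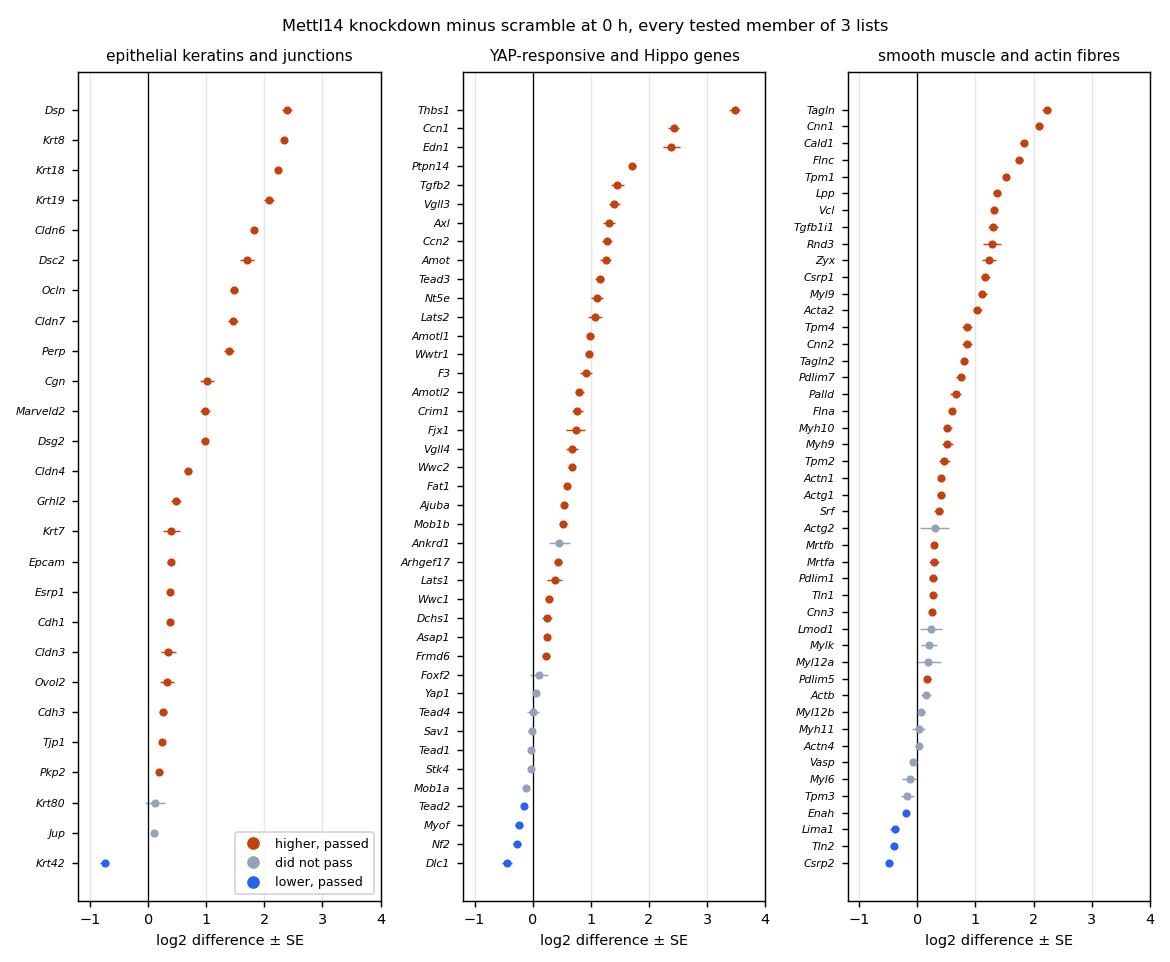
Log2 difference between Mettl14 knockdown and scramble at 0 h, with its standard error (x axis), for every tested member (y axis) of the keratin and junction, YAP and Hippo, and actin fibre lists. Orange points passed as higher, blue as lower and grey did not pass. The top of each panel reaches 2.38 (Dsp), 3.48 (Thbs1) and 2.22 (Tagln), and most points lie right of 0.

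Promoter windows of the YAP and Hippo list and of the actin list were read for a pair of short motifs. These lists were drawn up from genes tied to YAP or to actin fibres, so their motif shares can follow from that choice. Shares over all genes cover every gene with a window, tested or not. Whether TEAD factors or SRF act in this knockdown was not tested. Windows of 300 bases that run from before each gene's start to 50 bases after it came from RefSeq (GRCm38.p6, 32851 windows of 27025 genes). The TEAD motif was searched as GGAATG on both strands, CATTCC being its reverse complement, and the CArG box of SRF by its consensus, which reads the same on both strands. The motifs can share the letters CC, and a window can hold both, as that of Vcl does. GGAATG was found in 4481 of 27025 genes (16.6%), in 18 of 34 YAP and Hippo genes with a window (52.9%) and in 15 of 40 actin genes (37.5%). All 18 of these YAP and Hippo genes were tested and 14 were higher, beside 29 of 41 tested members of the whole list (70.7%). The CArG box was found in 488 of 27025 genes (1.81%), in 9 of 40 actin genes (22.5%) and in 0 of 34 YAP and Hippo genes. Of the 9 actin genes with a CArG box, 8 were tested and 6 were higher, beside 31 of 46 tested members of the whole list (67.4%). Over all genes with the CArG box 51 of 189 tested genes were higher, and over all with GGAATG 375 of 1685, both to be read beside the 19.4% of all genes. A match says only that these letters stand in the window.
The windows of 4 members that rose are printed 5′ to 3′ on the strand of the gene, with capitals for the motif: the CArG box in Vcl (chr14:20929148-20929447, plus strand) and Myl9 (chr2:156775214-156775513, plus strand), and GGAATG or CATTCC in Ccn1 (chr3:145649936-145650235, minus strand) and Tead3 (chr17:28350551-28350850, minus strand, 3 matches).
Vcl: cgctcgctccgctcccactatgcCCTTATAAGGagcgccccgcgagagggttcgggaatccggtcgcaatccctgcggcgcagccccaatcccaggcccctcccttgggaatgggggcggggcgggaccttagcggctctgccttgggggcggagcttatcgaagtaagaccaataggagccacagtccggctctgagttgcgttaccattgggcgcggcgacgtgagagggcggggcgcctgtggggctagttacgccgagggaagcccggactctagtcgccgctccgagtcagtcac
Myl9: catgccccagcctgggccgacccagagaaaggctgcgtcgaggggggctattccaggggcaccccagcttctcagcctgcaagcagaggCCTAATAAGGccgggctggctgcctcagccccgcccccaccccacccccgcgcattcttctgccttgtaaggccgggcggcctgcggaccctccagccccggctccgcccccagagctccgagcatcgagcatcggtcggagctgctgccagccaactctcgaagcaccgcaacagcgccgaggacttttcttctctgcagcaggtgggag
Ccn1: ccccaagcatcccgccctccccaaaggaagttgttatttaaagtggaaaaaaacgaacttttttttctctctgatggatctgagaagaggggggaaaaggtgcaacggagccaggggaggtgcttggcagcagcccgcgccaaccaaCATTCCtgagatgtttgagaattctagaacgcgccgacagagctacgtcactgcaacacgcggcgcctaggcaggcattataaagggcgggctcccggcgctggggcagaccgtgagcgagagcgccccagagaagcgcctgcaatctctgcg
Tead3: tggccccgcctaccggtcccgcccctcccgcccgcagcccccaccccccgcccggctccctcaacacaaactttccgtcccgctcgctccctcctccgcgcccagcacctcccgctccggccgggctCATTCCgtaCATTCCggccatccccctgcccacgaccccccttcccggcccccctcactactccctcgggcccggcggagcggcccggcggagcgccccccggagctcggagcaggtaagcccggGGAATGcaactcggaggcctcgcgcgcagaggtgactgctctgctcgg

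Matrix and integrin genes moved in part. Of 38 tested collagen, laminin and other matrix genes, 17 were higher and 3 lower, with a median of 0.25. Basement membrane collagen rose, Col4a1 by 0.74 and Col4a2 by 0.41, and so did the laminin chains Lamb1 (0.90), Lamb3 (0.69) and Lama4 (0.59). Lama1 read 8.42 and 8.19 in the Mettl14 knockdown arrays, against 9.60 and 9.57 in the scramble arrays. Lama1 is the alpha chain of the embryo's first laminin, and it fell by 1.28 on the log2 scale (adjusted p 1.32e-07), as did the linker nidogen 1 (Nid1, -1.08). Fibronectin (Fn1) fell by 0.18 on the log2 scale. Of the fibroblast collagens, Col1a1 rose by 0.58, while Col1a2 (0.05) and Col3a1 (0.22) did not pass. Among 18 tested integrins 8 were higher and 4 lower (2 lower without the first knockdown array or without the second scramble array). The RGD-binding chains Itga8 (1.93), Itgb8 (1.32), Itgav (1.05) and Itga5 (0.75) rose with the common beta chain Itgb1 (0.57), and Itga9 (-0.80) and Itgb7 (-0.86) fell.

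Guidance molecules on the cell surface also differed. Of 27 tested semaphorins, plexins and neuropilins, 12 were higher and 1 was lower. Beside Sema6a, the secreted Sema3c rose by 2.15 and the plexin receptors Plxnb2 and Plxna1 by 0.60 and 0.58, and Sema4b fell (-0.36). Eph receptors and ephrins were divided, with 7 higher and 4 lower of 18 (2 lower without the second scramble array). Epha4 read 8.76 and 8.48 in the Mettl14 knockdown arrays, against 10.10 and 10.09 in the scramble arrays. Efna5 read 8.85 and 8.60 in the Mettl14 knockdown arrays, against 6.32 and 6.05 in the scramble arrays. The receptor Epha4 and the ligand Efna5 can bind each other, and here the receptor was lower in knockdown by 1.47 on the log2 scale (adjusted p 1.42e-07) while the ligand was higher by 2.54 (9.67e-08). Epha1 (1.57), Efnb2 (1.34) and Efnb1 (0.94) rose too, and Ephb4 (-0.35) fell.

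Ligands and receptors of the main signalling pathways differed as well. Of 51 tested Wnt pathway genes, 21 were higher and 4 lower. Wnt3 read 8.01 and 7.96 in the Mettl14 knockdown arrays, against 6.07 and 6.08 in the scramble arrays. Wnt3 is the ligand of the primitive streak, and its groups stood apart by a difference of 1.91 ± 0.09 (adjusted p 1.06e-08). Wnt4 (1.29) and Wnt6 (0.82), the receptor Fzd6 (1.37) and the nuclear effector Lef1 (1.40) rose. Fzd5 (-0.97), the Wnt hydrolase Notum (-0.70) and the inhibitor Sfrp1 (-0.69) fell. Beta-catenin (Ctnnb1) stood at 0.07 (adjusted p 0.339) and the target Axin2 at -0.05 (0.672).

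In the BMP list, 12 of 27 tested genes were higher and 3 lower. Against the fall of Bmp4, the procollagen and BMP-activating protease Bmp1 rose by 1.29, Bmp2 by 0.64 and the receptor Bmpr2 by 0.76. The target genes Id2 (0.82), Id3 (0.36) and Id1 (0.27) were higher, and the inhibitory Smad6 (-0.82) was lower. Of 33 tested Nodal and TGF-beta genes 13 were higher and 4 lower. Tgfb2 read 7.66 and 7.56 in the Mettl14 knockdown arrays, against 6.32 and 6.00 in the scramble arrays. The ligand TGF-beta 2 differed by 1.45 ± 0.11 (adjusted p 8.44e-07), the antagonists Fst and Fstl1 rose by 0.99 and 1.41, and Nodal rose by 0.50. Inhbb read 6.96 and 7.20 in the Mettl14 knockdown arrays, against 8.60 and 8.28 in the scramble arrays. Inhbb codes for the beta B chain of activin, and both knockdown arrays lay below both scramble arrays, by -1.36 ± 0.14 (adjusted p 7.74e-06).

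FGF genes were split, with 7 of 28 higher and 10 lower. Fgf5, given above, rose, while Fgf4, the autocrine FGF of naive stem cells, fell by 0.49 on the log2 scale, and the receptors Fgfr1 (0.46) and Fgfr2 (-0.88) went opposite ways. The phosphatases that dampen ERK rose in Dusp4 (1.35), Dusp6 (0.90 in its brightest probe set, 0.30 with adjusted p 0.164 over the mean of its probe sets) and Dusp5 (0.86) and fell in Dusp9 (-0.30). In the insulin-like growth factor system, 10 of 15 tested genes were higher and 0 lower. The adaptor Irs1 rose by 1.31, the receptors Igf1r and Insr by 0.72 and 0.56, and the protease Pappa, which cleaves binding proteins, by 0.69. Of 27 tested Notch genes 8 (29.6%) were higher and 4 (14.8%) lower, against 19.4% and 20.1% of all genes. Among them were Notch3 at 0.88 and the DNA-binding effector Rbpj at -0.58.

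The LIF pathway was divided between its parts. Of 19 tested genes, 7 were higher and 8 lower, but these counts were 2 and 6 without the second knockdown array, 4 and 6 without the first scramble array, 4 and 5 without the second, and 3 and 8 with the long-lived genes as the scale. Lifr read 9.96 and 9.92 in the Mettl14 knockdown arrays, against 11.07 and 11.06 in the scramble arrays. The receptor fell by 1.13 on the log2 scale (adjusted p 1.7e-07). Socs3 read 8.93 and 8.88 in the Mettl14 knockdown arrays, against 9.59 and 9.83 in the scramble arrays. Bcl3 read 9.50 and 9.47 in the Mettl14 knockdown arrays, against 10.30 and 10.28 in the scramble arrays. Socs3 and Bcl3 were lower in both knockdown arrays, by -0.81 ± 0.08 for Socs3 (adjusted p 5.54e-06) and -0.80 ± 0.08 for Bcl3 (1.09e-05). Stat3 fell by 0.34 on the log2 scale, while the kinase Jak2 rose by 0.46 and the ligand Lif by 0.40. Pim2 read 9.49 and 9.45 in the Mettl14 knockdown arrays, against 8.18 and 8.36 in the scramble arrays. Pim2 is a serine/threonine kinase, and both knockdown arrays lay above both scramble arrays (1.20 ± 0.07, adjusted p 4.24e-08).

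Of 33 tested pluripotency genes, 27 were lower and 0 higher, with a median of -0.54. Tet2 read 10.62 and 10.50 in the Mettl14 knockdown arrays, against 11.89 and 11.91 in the scramble arrays. Tbx3 read 8.67 and 8.73 in the Mettl14 knockdown arrays, against 9.93 and 9.80 in the scramble arrays. Prdm14 read 7.20 and 7.21 in the Mettl14 knockdown arrays, against 8.31 and 8.25 in the scramble arrays. Tet2 oxidises 5-methylcytosine, Tbx3 acts downstream of LIF, and Prdm14 represses the genes of the primed state. All 3 were lower in both knockdown arrays, by -1.34 ± 0.11 (Tet2, adjusted p 1.28e-06), -1.16 ± 0.08 (Tbx3, 4.93e-07) and -1.07 ± 0.11 (Prdm14, 6.98e-06). Of the core factors, Pou5f1 read 8.43 and 8.78 in the Mettl14 knockdown arrays, against 9.40 and 9.28 in the scramble arrays. Nanog read 12.06 and 12.11 in the knockdown arrays, against 12.82 and 12.78 in the scramble arrays. The 6 members that did not pass were Lin28a (0.06), Sall4 (0.02), Gdf3 (-0.04), Utf1 (-0.08), Klf5 (-0.12) and Sox2 (-0.25, adjusted p 0.055). The surface molecules Jam2 (-1.28) and Pecam1 (-0.92) fell with the transcription factors.

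Genes of the primed epiblast, the state that follows in the embryo, were mostly higher in the time course, with 11 of 18 higher and 4 lower (2 lower without the second knockdown array or without the first scramble array). Otx2 read 9.53 and 9.24 in the Mettl14 knockdown arrays, against 8.28 and 8.26 in the scramble arrays. Pou3f1 read 9.06 and 8.99 in the Mettl14 knockdown arrays, against 7.79 and 7.88 in the scramble arrays. These transcription factors direct enhancers in the primed state, and both were above scramble in both knockdown arrays, by 1.12 ± 0.14 for Otx2 (adjusted p 4.03e-05) and 1.19 ± 0.09 for Pou3f1 (7e-07). Zic2 (0.86), N-cadherin (Cdh2, 0.81) and Lin28b (0.48) rose. The de novo DNA methyltransferases of this state differed in sign, with Dnmt3b at 0.34 and Dnmt3a at -0.58.

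Germline genes were lower. Of 25 tested members, 16 were lower and 0 higher, with a median of -0.63. Piwil2 read 7.54 and 7.43 in the Mettl14 knockdown arrays, against 8.78 and 8.71 in the scramble arrays. Mael read 7.34 and 6.84 in the Mettl14 knockdown arrays, against 8.38 and 8.40 in the scramble arrays. Tex14 read 7.68 and 7.54 in the Mettl14 knockdown arrays, against 8.93 and 9.01 in the scramble arrays. Piwil2 and Mael act in the piRNA pathway that guards the germline against transposons, and Tex14 keeps the bridges between germ cells open. Both knockdown arrays lay below both scramble arrays in all 3 genes, with differences of -1.26 ± 0.12 for Piwil2 (adjusted p 6.15e-06), -1.30 ± 0.16 for Mael (3.82e-05) and -1.36 ± 0.11 for Tex14 (1.56e-06). The receptor Kit (-1.25), the piRNA helicase Mov10l1 (-1.22), the RNA-binding protein Dazl (-1.02) and Sohlh2 (-1.15) fell as well. Ddx4 (-0.17, adjusted p 0.121) and Tex19.1 (0.01, 0.972) did not pass. Of 7 tested two-cell-like genes, the 4 that fell were the Zscan4 genes, and Zfp352 (-0.10, adjusted p 0.691) did not pass.

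Several subunits of Polycomb repressive complex 2 were lower. Over complexes 1 and 2 together, 12 of 27 tested subunits were lower and 4 higher (2 higher without the second knockdown array). Suz12 read 10.53 and 10.52 in the Mettl14 knockdown arrays, against 11.35 and 11.45 in the scramble arrays. Suz12 is a core subunit, and it differed by -0.87 ± 0.06 (adjusted p 3.71e-07). The other core subunits Eed (-0.57) and Ezh2 (-0.29) and the second catalytic subunit Ezh1 (-0.63) were also lower. Phf19 read 7.07 and 6.78 in the Mettl14 knockdown arrays, against 8.10 and 8.04 in the scramble arrays. Phf19, Mtf2 and Phf1 are the Polycomb-like proteins that bring the complex to DNA. Phf19 fell by 1.14 (adjusted p 5.26e-05) and Mtf2 by 0.64 on the log2 scale, while Phf1 (-0.10) did not pass. In complex 1, Scmh1 fell (-0.92) and Yaf2 (0.75) and Ring1 (0.28) rose, with Rnf2, the main catalytic subunit, at 0.06 (adjusted p 0.372). Of 16 tested DNA methylation and demethylation enzymes 5 were higher and 5 lower, with 3 higher without any 1 of the 4 arrays, or 3 and 7 with the long-lived genes as the scale. Tet1 fell by 0.52 on the log2 scale and Tet3 rose by 0.60, and Dnmt1 stood at -0.12 (adjusted p 0.0593).

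Calls among lineage genes went both ways, as did those of all genes (19.4% higher and 20.1% lower). The shares higher and lower were 47.1% and 17.6% of trophoblast regulators and 38.1% and 9.52% of endoderm genes. They were 32.0% and 32.0% of neural genes and 21.7% and 8.7% of mesoderm genes. Of 17 tested trophoblast regulators 8 were higher and 3 lower (5 higher without the first scramble array): Tfap2a (1.25), Plet1 (1.24) and Eomes (1.00) rose, Tfap2c (-1.33) and Gata2 (-0.57) fell, and Gata3 stood at 0.07 (adjusted p 0.694). Of 21 endoderm genes 8 were higher and 2 lower. Apob read 8.28 and 8.30 in the Mettl14 knockdown arrays, against 6.49 and 6.26 in the scramble arrays. Lrp2 read 10.79 and 10.79 in the Mettl14 knockdown arrays, against 9.10 and 9.10 in the scramble arrays. Apolipoprotein B and the endocytic receptor megalin (Lrp2) were higher in both knockdown arrays (adjusted p 1.42e-08 and 1.63e-10), whereas Cubn, the partner of megalin, was among the largest falls. Of the endoderm regulators Foxa2 rose by 0.38, and Sox17 (0.02), Gata4 (-0.25) and Hnf4a (0.06) did not pass. Gata6 read 5.61 and 5.62 in the Mettl14 knockdown arrays, against 6.84 and 6.82 in the scramble arrays, and was left out as dim. Without the filter on dim genes 7 of 23 endoderm genes were higher and 3 lower. Of 25 neural genes 8 were higher and 8 lower: the intermediate filaments Nefl, Nefm (1.58) and Nes (2.06) and the factors Sox4 (1.17) and Sox11 (1.14) rose, and Tubb3 (-1.22), Elavl3 (-0.76) and Pax6 (-0.39) fell. Of 23 mesoderm genes 5 were higher and 2 lower, near or under the shares of all genes.

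Lists of stress genes went opposite ways. Of 29 tested p53 targets 19 were higher and 4 lower, with a median of 0.45. Plk2 read 10.61 and 10.62 in the Mettl14 knockdown arrays, against 8.73 and 8.68 in the scramble arrays. Trp53inp1 read 11.63 and 11.72 in the Mettl14 knockdown arrays, against 10.65 and 10.66 in the scramble arrays. Plk2 is a kinase of the stress response and Trp53inp1 a cofactor of p53, and both knockdown arrays were above both scramble arrays (adjusted p 3.17e-08 and 2.05e-08). Targets of the amino acid stress factor ATF4 were lower, with 20 of 32 tested genes lower and 4 higher. Trib3 read 7.14 and 7.47 in the Mettl14 knockdown arrays, against 8.54 and 8.89 in the scramble arrays. Chac1 read 6.58 and 6.80 in the Mettl14 knockdown arrays, against 7.98 and 8.01 in the scramble arrays. The pseudokinase Trib3 and the glutathione-degrading Chac1 are sensitive readouts of ATF4, and both were lower in both knockdown arrays, by -1.41 ± 0.16 for Trib3 (adjusted p 2.45e-05) and -1.30 ± 0.11 for Chac1 (1.34e-06). The enzymes Gpt2 (-1.27), Pck2 (-1.01), Psph (-0.91) and Mthfd2 (-0.67), the transporter Slc7a1 (-0.86) and Atf4 itself (-0.55) fell, and the cysteine-making enzyme Cth (1.05) and the mTOR inhibitor Ddit4 (0.83) rose.

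Immediate early genes were higher in 19 of 34 cases and lower in 3. The growth response gene Egr1 (0.88), the phosphatase Dusp1 (1.01) and the receptor Nr4a2 (0.74) rose, and the kinase Sik1 (-0.92) and Myc (-0.43) fell. Of 13 AP-1 genes, Jun (1.49) and Fosl2 (1.20) led 6 rises, and Fos stood at 0.19 (adjusted p 0.399). In the apoptosis list 11 of 27 were higher and 1 lower. Casp8 read 10.30 and 10.17 in the Mettl14 knockdown arrays, against 8.05 and 7.99 in the scramble arrays. Caspase 8 starts the extrinsic pathway, and its difference was 2.21 ± 0.08 (adjusted p 1.35e-09).

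Genes of mitosis and DNA replication were lower by small amounts: 27 of 38 mitosis genes fell and 0 rose (median -0.24), with the largest fall -0.45 in the kinetochore gene Ndc80. Of 44 DNA replication genes 21 fell and 2 rose (median -0.14), and the count that fell was 11 to 26 over the settings tried, with 13 without the second knockdown array and 13 without the second scramble array. The CDK inhibitors split, as Cdkn1a rose by 1.32 and Cdkn1b fell by 0.74 on the log2 scale, and the pocket protein Rbl2 fell (-0.76). Of 37 oxidative phosphorylation genes 13 were lower (35.1%) and 1 higher (2.7%), against 20.1% and 19.4% of all genes. Of 36 proteasome genes 10 were lower (27.8%) and 4 higher (11.1%). Of 38 ribosomal protein genes 5 were lower (13.2%), a share under that of all genes, and 1 higher (2.63%). These counts were not stable: 8 oxidative phosphorylation genes were lower without the second knockdown array and 8 without the first scramble array, 3 to 6 proteasome genes were lower when each array was left out and 17 with the long-lived genes as the scale, and 2 ribosomal protein genes were lower without the first scramble array and 11 with the long-lived genes as the scale. The median differences of these 3 lists lay between -0.13 and -0.08, and their median signals between 10.64 and 11.61. In the brightest of 4 equal groups of genes by signal in the repeat set's scramble arrays, 31.4% of genes were lower. In the hypoxia and glycolysis list, where 8 of 27 genes were higher and 4 lower, a split that turned to 5 and 7 with the long-lived genes as the scale, Vegfa (-1.12) and the phosphofructokinase Pfkp (-1.06) fell and the lactate exporter Slc16a3 (0.98) rose.

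Calls in the lists of m6A and mRNA decay genes went both ways, as did those of all genes (19.4% higher and 20.1% lower). Of 9 tested writer genes 4 were lower, namely Mettl14, Pcif1 (-0.29), Rbm15b (-0.24) and Mettl16 (-0.24), and the scaffold Virma was higher (0.34), while Wtap (-0.03, adjusted p 0.724) and Zc3h13 (-0.05, 0.716) did not pass. Among 11 readers and demethylases, Igf2bp3 (1.17), Ythdc1 (0.41), the demethylase Alkbh5 (0.18) and Ythdf1 (0.17) rose and the demethylase Fto fell by 0.26 on the log2 scale, as did Hnrnpc and Fmr1. With the long-lived genes as the scale 2 of these genes were higher and 3 lower. Of 57 tested decay genes 17 (29.8%) were lower and 6 (10.5%) higher. The median signal of this list lay between 10.29 and 10.42. In the brightest of 4 equal groups of genes by signal in the repeat set's scramble arrays, 31.4% of genes were lower and 19.3% higher. Tob1 read 8.21 and 7.87 in the Mettl14 knockdown arrays, against 8.81 and 8.99 in the scramble arrays. Tob1 recruits deadenylases to mRNA and differed by -0.86 ± 0.14 (adjusted p 0.000418), beside the decapping enzyme Dcp2 (-0.52) and the CCR4-NOT subunit Cnot10 (-0.56). Btg2 (1.40) and the AU-rich element binders Zfp36 (0.52) and Zfp36l2 (0.55) were higher.

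Of 24 tested genes of the interferon response and antigen presentation, 9 were higher and 5 lower. Beta-2 microglobulin (B2m, 1.12), the class I chain H2-K1 (0.91), the peptide transporter Tap1 (0.79) and its partner Tapbp (0.60) rose. The interferon signalling genes Irf9 (-1.11) and Stat2 (-0.48) and the membrane proteins Ifitm1 (-1.01) and Ifitm2 (-0.85) fell. Of 29 tested imprinted genes 16 were higher and 1 lower, with a median of 0.31. Plagl1 read 8.29 and 8.38 in the Mettl14 knockdown arrays, against 7.05 and 7.12 in the scramble arrays. Plagl1 is a zinc finger regulator of other imprinted genes, with a difference of 1.25 ± 0.07 (adjusted p 3.43e-08). Sgce (0.95), Ndn (0.77), Igf2 (0.72) and Peg10 (0.65) rose, and Mest (-0.25) fell.

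The repeat set holds the same knockdown on arrays that it does not share with the time course. There 2864 genes (19.4%) were higher and 2494 (16.9%) lower than in its own scramble arrays, or 2955 and 1437 with the long-lived genes as the scale (67.3% of calls in place of 53.5%). Mettl14 read 7.59 and 7.25 in the repeat set's knockdown arrays and 8.77 and 8.79 in its scramble arrays, a difference of -1.36 ± 0.10 (adjusted p 0.000158). A label conflict touches 1 of these arrays: the description of the second scramble array names 4 h, while its title, source and time give 0 h. Of the 335 genes at least 2-fold higher in the time course, 285 (85.1%) were higher and 8 lower in the repeat set, against 19.4% and 16.9% of all genes. Of the 123 at least 2-fold lower, 117 (95.1%) were lower and 0 higher. The median difference of the 335 was 1.32 in the time course, whose values chose the genes, and 0.71 in the repeat set. That of the 123 was -1.22 in the time course and -0.71 in the repeat set.

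The size of the effect differed between the sets for many genes. The difference of the effects, time course minus repeat set, passed as positive for 1162 genes (7.86%) and as negative for 1277 (8.64%). With the long-lived genes as the scale these were 677 and 2204, and the median of all genes was -0.12 log2 units in place of -0.013. Ceacam1 read 8.47 and 8.34 in the knockdown and 10.81 and 10.87 in the scramble arrays of the repeat set, and the difference between the sets was -0.02 ± 0.11 (adjusted p 0.95). Bmp4, among the largest falls of the time course, read 9.75 and 9.67 in the knockdown and 9.77 and 9.80 in the scramble arrays of the repeat set, a difference of -0.08 ± 0.04 there (adjusted p 0.215), and the sets differed by -1.60 ± 0.16 (4.52e-06). Cnn1 read 8.999 and 8.88 in the knockdown and 9.05 and 9.19 in the scramble arrays of the repeat set. The sets differed by 2.28 ± 0.08 for this gene (adjusted p 5.02e-11), with -0.18 ± 0.06 in the repeat set alone (0.0654).

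Some genes moved more in the repeat set. Nrk, an X-linked kinase of the placenta, read 7.50 and 7.24 in the knockdown and 6.64 and 6.81 in the scramble arrays of the time course, and 9.21 and 9.35 in the knockdown and 6.82 and 6.76 in the scramble arrays of the repeat set. Its knockdown effect was 0.65 ± 0.12 in the time course and 2.49 ± 0.10 in the repeat set, and the sets differed by -1.84 ± 0.17 (adjusted p 1.19e-06). The trophoblast regulators had a median of 0.21 in the time course and 0.55 in the repeat set, where 13 of 17 were higher and 2 lower. Of the 17, 8 passed as less positive in the time course and 1 as more. Cdx2, which sets up trophectoderm, had an effect of 0.41 ± 0.13 in the time course and 1.59 ± 0.08 in the repeat set (difference between the sets -1.17 ± 0.17, adjusted p 0.000141).

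Several lists separated the sets. Of the 29 p53 targets, 22 passed as more positive in the time course and 2 as less, and in the repeat set alone 6 were higher and 11 lower. Trp53inp1 read 11.16 and 11.19 in the knockdown and 11.19 and 11.17 in the scramble arrays of the repeat set. Sterol biosynthesis went the other way, with 9 of 23 tested genes higher and 4 lower in the time course (1 lower without the second knockdown array and 2 without the first scramble array), 22 higher and 0 lower in the repeat set, and 15 passed as less positive in the time course. Fdps, farnesyl diphosphate synthase, read 10.92 and 10.91 in the knockdown and 11.35 and 11.31 in the scramble arrays of the time course, and 12.14 and 12.15 in the knockdown and 11.60 and 11.55 in the scramble arrays of the repeat set. Its effect was -0.41 ± 0.06 in the time course (adjusted p 8.95e-05) and 0.57 ± 0.04 in the repeat set (0.000128). ATF4 targets were lower in 15 of 32 cases and higher in 0 in the repeat set, and 16 passed as more negative in the time course. In the adhesion lists 17 of 26 keratin and junction genes were higher in the repeat set and 2 lower, 30 of 41 YAP and Hippo genes and 2, and 26 of 46 actin genes and 3. The sizes differed between the sets: 12 keratin and junction genes passed as more positive in the time course and 1 as less, 10 YAP and Hippo genes and 7, and 18 actin genes and 2, against 7.86% and 8.64% of all genes. Primed epiblast genes were split in the repeat set, with 6 of 18 higher and 5 lower and a median of 0.10, and 10 passed as more positive in the time course and 1 as less. Germline genes had 11 of 25 lower and 5 higher in the repeat set with a median of -0.12, and 10 passed as more negative in the time course. Feeder genes of the wider list had 7 of 21 higher and 0 lower in the repeat set. Pluripotency genes were lower in 30 of 33 cases there and higher in 1, Dppa3 (0.34), which was lower in the time course (-0.33).

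**Figure D4:**
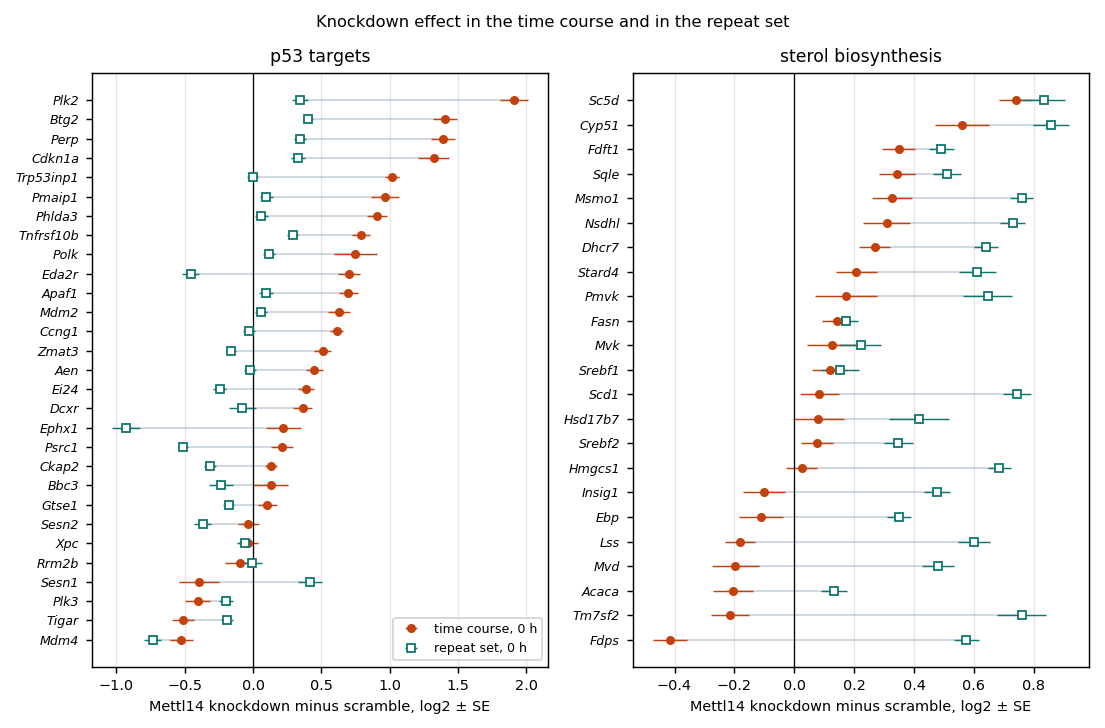
Log2 difference between Mettl14 knockdown and scramble, with its standard error (x axis), in the time course (filled circles) and in the repeat set (open squares) for every tested p53 target and sterol biosynthesis gene (y axis). The p53 targets lie further right in the time course, as for Plk2 at 1.91 beside 0.34, and the sterol genes further right in the repeat set, as for Tm7sf2 at -0.22 beside 0.76.

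Mettl14 knockdown was set directly against Mettl3 knockdown at 0 h, a difference in which no scramble array enters, although the spread was shared with the scramble arrays. Of the 14787 genes, 421 (2.85%) were higher and 476 (3.22%) lower in Mettl14 knockdown than in Mettl3 knockdown. These counts moved with the setting: 41 were higher and 40 lower with the spread taken from the 6 arrays at 0 h alone, 246 and 258 without the filter on dim genes, and leaving out each array in turn gave 177 to 265 and 199 to 315. In all, 6 genes were at least 2-fold higher and 3 at least 2-fold lower. Mettl14 itself read 7.28 and 7.51 in its own knockdown and 8.997 and 8.99 in Mettl3 knockdown, a difference of -1.60 ± 0.13 (adjusted p 6.65e-05). Apob read 8.28 and 8.30 in Mettl14 knockdown and 7.07 and 6.99 in Mettl3 knockdown, a difference of 1.26 ± 0.09 (adjusted p 2.62e-05). Both Mettl14 knockdown arrays lay above both Mettl3 knockdown arrays for Apob, and below them for Mettl14.

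In some of the largest differences the scramble arrays lay between the knockdowns. Zhx1, a zinc finger and homeobox repressor, read 8.26 and 8.06 in Mettl14 knockdown, 6.77 and 7.05 in Mettl3 knockdown and 7.48 and 7.43 in scramble. Its difference between the knockdowns was 1.25 ± 0.10 (adjusted p 5.9e-05). Nckap1l, a subunit of the actin-regulating WAVE complex in blood cells, read 8.93 and 8.73 in Mettl14 knockdown, 7.46 and 7.95 in Mettl3 knockdown and 8.47 and 8.32 in scramble (1.13 ± 0.14 between the knockdowns, 0.000626). With the spread of the 6 arrays at 0 h alone, Nckap1l (adjusted p 0.0576) and Pla2g1b (0.0744) no longer passed. Apln, the ligand of the apelin receptor, differed by 1.22 ± 0.14 (adjusted p 0.000474) and Ube2dnl1 by 1.09 ± 0.14 (0.00118). Lower in Mettl14 knockdown were Sox18 (-1.03 ± 0.16, adjusted p 0.00317), Klhl4 (-1.02 ± 0.14, 0.00151), the keratin Krt17 (-0.95 ± 0.11, 0.000436) and Pla2g1b (-0.91 ± 0.16, 0.00569).

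Some genes with large knockdown effects did not pass between the knockdowns, which does not show that they were equal. Krt8 read 12.43 and 12.42 in Mettl14 knockdown and 12.63 and 12.56 in Mettl3 knockdown (-0.17 ± 0.05, adjusted p 0.06), and Sema6a read 10.44 and 10.44 in Mettl14 knockdown and 10.43 and 10.27 in Mettl3 knockdown (0.09 ± 0.09, 0.654). Of the p53 targets 7 of 29 were higher in Mettl14 knockdown and 0 lower, and of pluripotency genes 5 of 33 were higher and 2 lower. Over all genes 2.85% were higher and 3.22% lower. These list counts were not recomputed under other settings. With the 6 arrays at 0 h alone, only 41 of all genes were higher and 40 lower. Cnn1 was lower in Mettl14 knockdown, at 9.43 and 9.36, than in Mettl3 knockdown, at 10.06 and 10.07 (-0.67 ± 0.06, adjusted p 7.86e-05). Mettl3 knockdown minus scramble shares the scramble arrays with the comparison at 0 h, so only values are placed side by side: Thbs1 at 3.48 in Mettl14 knockdown and 3.11 in Mettl3 knockdown, Ccn1 at 2.43 and 2.16, and Zscan4e at -2.94 and -2.61.

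At the later time labels the knockdown was compared with scramble arrays of the same time, which share no array with 0 h. At 4 h 2958 genes (20%) were higher and 2886 (19.5%) lower, and at 8 h 3525 (23.8%) were higher and 2926 (19.8%) lower. Of the 335 genes at least 2-fold higher at 0 h, 333 were higher at 4 h and 327 at 8 h, and of the 123 lower ones 123 and 117 were lower. A few rises at 0 h were smaller later. Ccn1 read 8.39 and 8.42 in knockdown and 7.90 and 7.83 in scramble at 4 h, and 8.26 and 8.18 in knockdown and 7.89 and 7.74 in scramble at 8 h, so that its difference was 2.43 at 0 h, 0.54 at 4 h and 0.40 at 8 h. The knockdown arrays stayed above the scramble arrays at each time. Jun gave 1.49, 0.41 and -0.02, the early response gene Ier3 1.08, 0.08 and 0.12, and the adaptor Irs2 2.01, 1.31 and 0.72, in the order of the times. Bmp4 gave -1.68, -0.65 and -0.45. By contrast Thbs1 (3.48, 3.11 and 3.08) and Krt8 (2.34, 2.11 and 1.93) kept over 1.9 log2 units. The change of these differences over time was not tested.

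**Figure D5:**
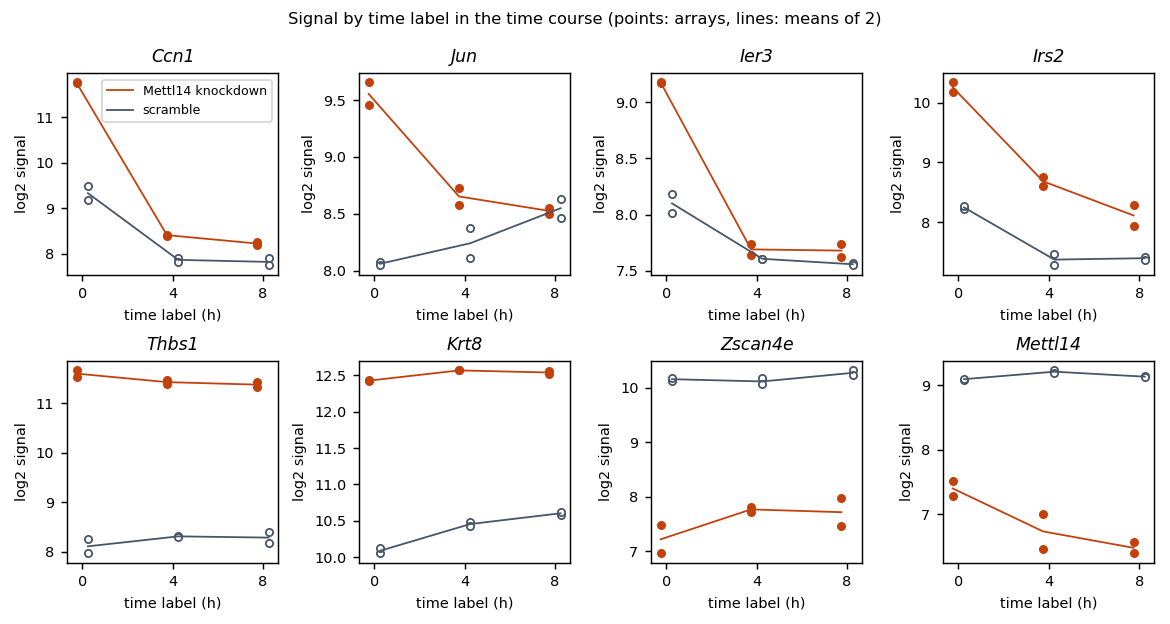
Log2 signal (y axis) by time label in hours (x axis) for 8 genes in Mettl14 knockdown (filled orange) and scramble (open), with 1 point per array and lines through the means of 2 arrays. The gap of Ccn1 is 2.43 at 0 h and 0.40 at 8 h, while that of Thbs1 is 3.48 and 3.08.

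Properties of the genes were described for the whole table, since they bear on which genes pass. In 4 equal groups of genes by the signal in the repeat set's scramble arrays, dimmest first, the share of genes lower in Mettl14 knockdown was 5.11%, 17.0%, 27.1% and 31.4%, and the share higher was 14.1%, 21.8%, 22.4% and 19.3%. Gene span was matched to RefSeq for 14767 genes, and genes are not independent of each other here: 51, 61, 67 and 156 genes were at least 2-fold higher in 4 equal groups by span, shortest first, against 31, 27, 27 and 38 at least 2-fold lower. Thus 4.23% of the group with the longest spans and 1.38% of that with the shortest were at least 2-fold higher. Chromosome medians lay between -0.035 and 0.018 log2 units.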

How the data were processed

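Poly(A) RNA was hybridised to Affymetrix mouse gene arrays, and 4 of 26 arrays (2 Mettl14 knockdown and 2 scramble, 0 h, time course) are described here. The authors deposited log2 values for 41345 probe sets, and the submitters' processing notes name RMA and oligo, without versions; scale and normalization beyond that are not given in the sources used here. No signal over background or detection call was deposited. The values were used as deposited. Probe sets with exactly 1 symbol in the platform table (23521) stood for 22180 genes; 1814 with several symbols and 16010 not listed were left out. Where a gene had more than 1 probe set (1082 genes), the one with the highest mean signal was taken. The dimmest 0.333 of genes by mean over all arrays (7393) were left out, which left 14787 with a mean of at least 6. Linear models were fitted in limma (version 3.58.1, R version 4.3.3) and moderated with eBayes, two-sided, with Benjamini-Hochberg adjustment over all genes and a threshold of 0.05. They ran over 18 time course arrays (9 residual degrees of freedom), 8 repeat arrays (4) or all 26 (13). The script was tested on simulated data. Only 2 arrays a group limit the precision. Replicate numbers are shared between groups. At 0 h the replicate differences of Mettl14 knockdown and scramble correlated with r of 0.122 across genes, and those of both knockdowns with -0.337. No block was used, and counts with a block are given at the end. Genes named are the 20 largest rises and 20 largest falls with groups that do not overlap, the 5 largest each way of the Mettl3 comparison and of the difference between the sets, unnamed and predicted genes left out, and members of the lists; Mettl14, Pou5f1, Nanog, Sox2, Actb and Gapdh were looked at in every comparison. Members and lists were chosen with earlier results of these data known. Jun, Ier3 and Irs2 were picked for the time labels after their values were seen. Cell type markers were summed as 2 to the power of the signal. Promoters and gene spans come from RefSeq (GRCm38.p6). Other settings are given at the end.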

Additional observations from a re-analysis of the deposited data

Results flagged for a closer look

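The Mettl14 knockdown effect differed between the time course and the repeat set for 1162 genes in the positive and 1277 in the negative direction. Of 42 genes named for their size in the 0 h comparison or in the difference between the sets, 35 passed this test. The 0 h values of the time course chose most of these genes, so that larger values there are in part set by the choice. Each value below is time course minus repeat set, in log2 units.

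Among the rises the difference was 3.05 for Cysltr1, 2.54 for Thbs1, 2.49 for Nefl, 2.39 for St6gal2, 2.28 for Cnn1 and 2.16 for Sema6a. It was 1.97 for Ptgs2, 1.91 for Efna5, 1.84 for Fndc3c1, 1.69 for H2-M2, 1.65 for Fgf5, 1.47 for Gabra5 and 1.30 for Anxa3. Smaller values were 1.19 for Edn1, 1.17 for Ccn1, 1.09 for Dsp, 0.98 for Krt8, 0.88 for Colec12, 0.84 for Wls, 0.79 for Rnf128 and 0.70 for Krt18.

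Among the falls it was -2.18 for Zscan4e, -1.75 for Zscan4b, -1.73 for Zscan4c, -1.60 for Bmp4 and -1.50 for Prkch. It was -1.31 for Srgn, -1.29 for Cubn, -1.23 for Pramel19, -1.04 for Zscan4d, -0.59 for Clgn, -0.53 for Mras, -0.40 for Igsf21 and -0.36 for Lrrc2. Nrk, which rose in both sets, had -1.84. The calls of Igsf21, Lrrc2, Srgn and Pramel19 were lost under 11, 7, 4 and 3 of the other settings.

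Probe sets without exactly 1 gene symbol lie outside the comparisons above. Of 9935 such probe sets, 506 (5.09%) were higher and 777 (7.82%) lower in Mettl14 knockdown than in scramble when all 27564 probe sets were fitted together.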

How the results depend on the processing

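The count of genes higher or lower in Mettl14 knockdown than in scramble at 0 h stayed within 1.5 times under the 14 other settings, with 2283 to 2428 higher and 2114 to 2680 lower when each array was left out in turn, a lone array being taken to vary like the other groups. In the repeat set 1437 genes were lower with the long-lived genes as the scale, and 1646 to 1760 when each array was left out, the lowest without the second scramble array, whose description names 4 h. For Mettl14 against Mettl3 knockdown, 246 genes were higher and 258 lower with no filter on dim genes, 272 were higher with the long-lived genes as the scale, 41 were higher and 40 lower with 6 arrays at 0 h only, and 177 to 265 were higher and 199 to 315 lower when each array was left out. The difference between the sets gave 677 and 2204 with the long-lived genes as the scale. The cause of these shifts was not tested. Whether the replicate numbers pair the arrays was not settled. At 0 h the replicate differences of Mettl14 knockdown and scramble correlated with r = 0.122 across genes, and those of both knockdowns with -0.337. At 8 h those of Mettl14 knockdown and scramble correlated with -0.232. With the replicate block 2824 genes were higher and 2927 lower in Mettl14 knockdown than in scramble, 2738 and 2375 in the repeat set, 370 and 437 against Mettl3 knockdown, and 1162 and 1250 for the difference between the sets. Of 4275 gene values recomputed for the 0 h comparison, 4121 kept direction and call, 141 lost the call, 13 gained it and 0 reversed. Among the lists, the YAP and Hippo genes that were lower numbered 2 without either knockdown array and 1 without the second scramble array, and the m6A readers and demethylases that were higher numbered 2 without the second knockdown array or the first scramble array. With the spread of 4 arrays alone 9 of 57 decay genes were lower and 2 of 9 writer genes, and with the long-lived genes as the scale 6 matrix genes, 5 immediate early genes and 4 imprinted genes were lower. The genes that lost a call are given with the value of highest adjusted p. Without the first Mettl14 knockdown array these were Cdx2 (0.26, adjusted p 0.182), Jak2 (0.34, 0.225), Mrtfa (0.22, 0.131), Nckap1l (0.34, 0.139), Ovol2 (0.10, 0.402) and Zfp36 (0.41, 0.195). Without the second they were Cldn3 (0.20, 0.338), Fmr1 (-0.11, 0.23), Fto (-0.18, 0.11), Id3 (0.30, 0.0689), Klhl4 (0.29, 0.19), Lif (0.24, 0.266), Rbm15b (-0.13, 0.257) and Ythdf1 (0.10, 0.326). Without the first scramble array they were Alkbh5 (0.15, 0.141), Dppa3 (-0.26, 0.19), Lats1 (0.36, 0.124), Ring1 (0.23, 0.132) and Tm7sf2 (-0.14, 0.172). Without the second they were Ephb4 (-0.25, 0.0552), Myc (-0.41, 0.106), Myof (-0.15, 0.205), Nf2 (-0.22, 0.0783) and Sox18 (-0.32, 0.244). With the 4 arrays alone they were Enah (adjusted p 0.0852), Fn1 (0.101), Hnrnpc (0.0832), Mettl16 (0.0555) and Pax6 (0.0707), and with the 6 arrays at 0 h Tead2 (0.15). With the mean of the probe sets they were Dusp6 (0.30, 0.164) and Plxnb1 (0.17, 0.229). Array signal near its floor limits what can be read for the dimmest genes.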

Other observations

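In 4 equal groups of genes by the change of scramble signal between 4 h and 8 h, most negative first, 118, 107, 52 and 58 genes were at least 2-fold higher in Mettl14 knockdown at 0 h, and 45, 25, 22 and 31 at least 2-fold lower. These scramble arrays share none with the 0 h comparison, although they entered its estimate of the spread. The groups had median changes of -0.2875, -0.0535, 0.0555 and 0.172 log2 units in scramble, and the labels do not say what the cells were given between these times.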
